A study of Aedes albopictus with 6 samples.

Results

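The region described here is the stretch of scaffold NW_021838599.1 between bases 5379067 and 5502690 of the Asian tiger mosquito, Aedes albopictus, taken with every listed small RNA tag that lies wholly inside it. It held 433 of the 22773 listed tags. When listed tags at most 10 kb apart were joined, it had the most tags of the 485 nuclear regions with 5 or more. The members were chosen by position alone, although the list they come from holds only tags whose levels were at least 2-fold apart between the sexes. A tag is 1 distinct small RNA position with its count, and lengths in the list ran from 24 to 33 nt.

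The study compared males with virgin females, both adults 2 days after emergence, as whole bodies, with 3 libraries labelled Male and 3 labelled Female. The deposited table gave 1 count per tag and sex, so every difference is between 2 values, with no replicate check and no test. The totals behind the counts were 2060047 in males and 2677063 in females, and TPM is the count scaled by that total, with no length term. Ratios are male over female TPM, so values below 1 are lower in males. Brackets hold 95% intervals that cover counting error only.

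PIWI-interacting RNAs (piRNAs) guide PIWI proteins to transposon and other transcripts and so silence them in animal germ lines. Many are cut from long precursor transcripts of particular genomic stretches, called piRNA clusters. In Aedes mosquitoes they are also made outside the germ line, and some of their sources hold pieces of viral genomes. As ovaries, testes and all other tissues were in the samples, fewer cells that make these RNAs and less RNA per cell cannot be told apart.

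In sum the cluster was lower in males, and most of its tags went the same way. The tags held 2525 counts in males and 6440 in females. Their summed TPM was 1226 in males against 2406 in females, at a ratio of 0.51 (0.49 to 0.53). With RLE factors, another way to scale the sexes, the ratio was 0.23 (0.22 to 0.24). Those factors rest on the list alone, which lacks tags under 2-fold. The cluster gave 1.14% of the listed male counts and 2.4% of the listed female counts, while being 1.9% of the listed tags. Higher in males were 100 tags (23.1%), against 31.7% of all listed tags, and higher in females were 333 (76.9%), against 68.3% of all listed tags. Because the list was filtered on these same samples, these shares describe the list and not all small RNAs of the region.

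**Figure D1:**
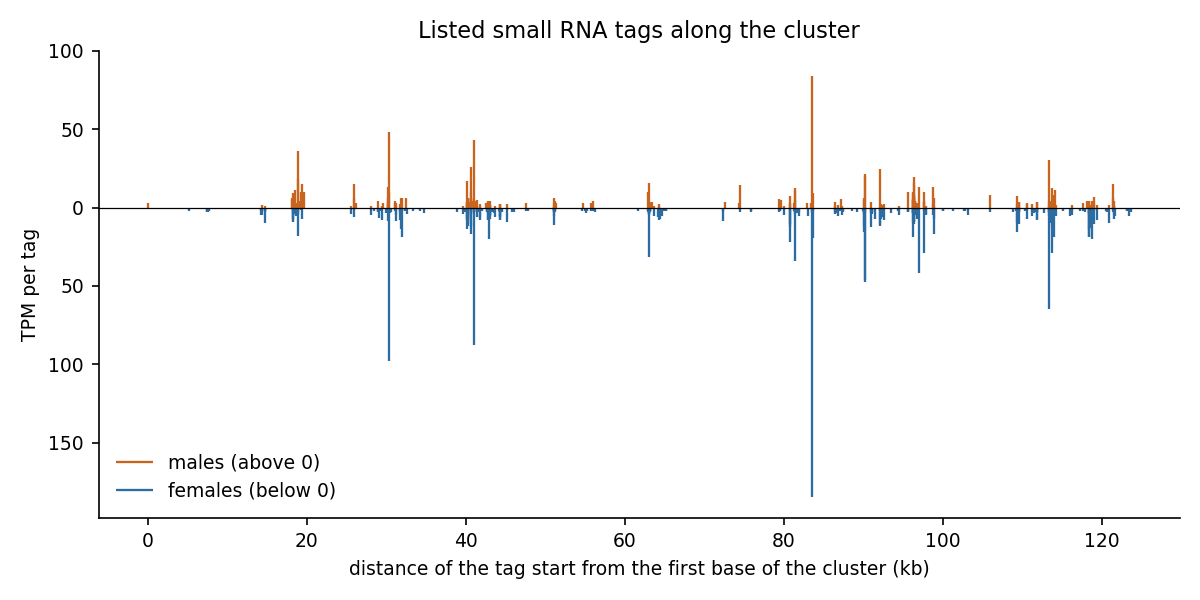
TPM of each tag (vertical axis) against the distance of its start from the first base of the cluster in kb (horizontal axis), with males above 0 and females below 0. Most tags are small, and a few positions stand out in both sexes, the tallest reaching 84.0 TPM in males and 185 TPM in females.

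The tags fell into 3 kinds by where they were counted. Counted in both sexes were 155 tags, of which 49 were higher in males and 106 in females. In the whole list 6223 tags were counted in both sexes. Of its 7226 tags higher in males 3868 were listed in males alone, and of its 15547 higher in females 12682 were listed in females alone. Listed in males alone were 51 tags (11.8%, against 17% of all listed tags), and listed in females alone were 227 (52.4%, against 55.7% of all listed tags). The smallest count above 0 in the table was 2, so a listed 0 can stand for 0 or 1. Most tags were sparse. The median summed count of both sexes was 9, 233 tags had fewer than 10, and 11 had 100 or more.

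Of the tags with counts in both sexes, the share with a large difference towards males was below that of the whole list, and the share towards females was above it. At least 4-fold higher in males were 22 of the 155 tags (14.2%, against 28.8% of all listed tags counted in both sexes). At least 4-fold lower in males were 51 (32.9%, against 22.5%). Both shares are over tags of both directions, so they also follow how many tags went each way. The median fold was 3.51 for the tags higher in males, against 4.26 in the whole list. For those higher in females it was 3.85, as in the whole list. The counting interval excluded 1 for all 49 tags higher in males and for 89 of the 106 higher in females. As the list kept only tags at least 2-fold apart in these same counts, this follows in part from the filter. It is no separate support for a difference, and the matching share of the whole list is not given here.

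**Figure D2:**
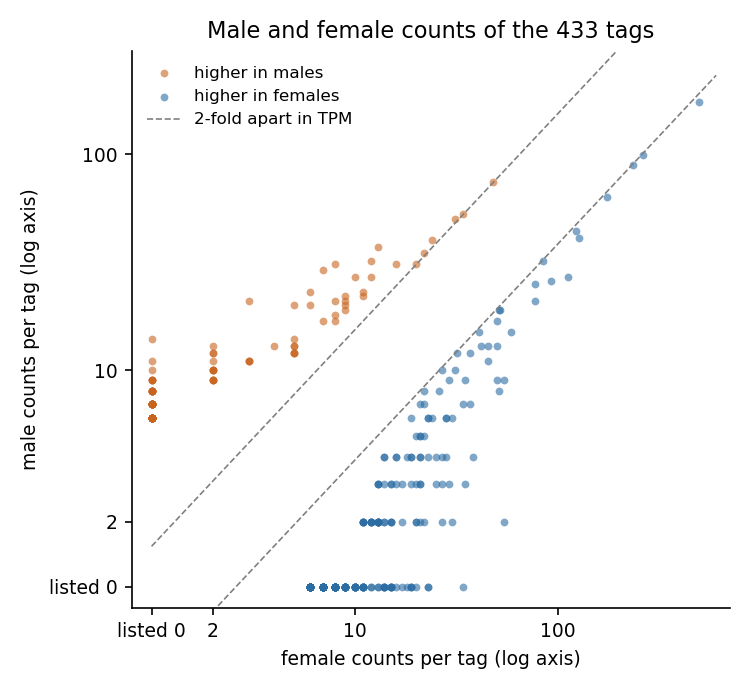
Male counts (vertical, log axis) against female counts (horizontal, log axis) of the 433 tags, coloured by the sex with the higher TPM, with listed zeros drawn at the axis start. The dashed lines mark 2-fold apart in TPM, and the tags with most counts of both directions lie close to them.

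The most counted tag, t00006651, led the cluster in both sexes. It is 28 nt long, lies at bases 5462611 to 5462638, and had 173 counts (TPM 84.0) in males and 494 counts (TPM 185) in females, at a ratio of 0.46 (0.38 to 0.54). The next were tags of 27 nt. The tag at 5409365 to 5409391 had 99 counts in males and 262 in females, at a ratio of 0.49 (0.39 to 0.62). The tag at 5420112 to 5420138 had 89 counts in males and 234 in females, at a ratio of 0.49 (0.38 to 0.63). A 28-nt tag at 5492415 to 5492442 had 63 counts in males and 174 in females, at a ratio of 0.47 (0.35 to 0.63). A pair that lies 1 inside the other, of 31 nt at 5469220 to 5469250 and of 27 nt at 5469223 to 5469249, came after them, with 41 and 44 counts in males and 127 and 123 in females. All 6 were thus a little over 2-fold lower in males, by 2.02-fold to 2.38-fold.

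The tags higher in males reached lower levels. The most counted, t00029452, 28 nt at 5398002 to 5398029, had 74 counts (TPM 35.9) in males and 48 counts (TPM 17.9) in females, at a ratio of 2.0 (1.37 to 2.94). It was followed by the tag at 5419664 to 5419691 (28 nt), with 53 counts in males and 34 in females. Shorter tags came next, of 25 nt at 5471159 to 5471183 with 50 counts in males and 31 in females, and of 24 nt at 5475410 to 5475433 with 40 in males and 24 in females. The tags at 5419182 to 5419208 (27 nt) and 5398432 to 5398456 (25 nt) had 35 and 31 counts in males and 22 and 20 in females. For all 12 of these most counted tags of both directions the interval reached across the 2-fold edge of the list. With RLE factors, 1 of 4 other ways to scale the sexes, the 6 higher in males turned to ratios between 0.89 and 0.96. These factors rest on a list without tags under 2-fold.

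Larger folds came from lower counts, which follows in part from the filter of the list. At 2 counts in the other sex, no cluster tag was listed with under 9 counts in males or under 11 in females. The tag at 5421929 to 5421956 (28 nt) had 2 counts in males and 54 in females, at a ratio of 0.048 (0.0057 to 0.18), the most extreme among tags counted in both sexes. Those at 5471195 to 5471222 and 5393837 to 5393863 had 2 counts each in males and 30 and 27 in females. The tag at 5497642 to 5497668 had 3 counts in males and 35 in females. In the other direction, the 26-nt tag at 5398662 to 5398687 had 21 counts in males and 3 in females, at a ratio of 9.1 (2.72 to 47.6). The tag at 5453573 to 5453597 (25 nt) had 29 counts in males and 7 in females. Those at 5500395 to 5500422 and 5493174 to 5493200 had 31 and 23 counts in males and 8 and 6 in females. These 4 female-higher and 4 male-higher tags had the largest folds among cluster tags counted in both sexes that reached a TPM of 10 or more in 1 sex.

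Tags listed in 1 sex alone were of low count on both sides. In males alone the highest were tags of 25 nt at 5498043 to 5498067 with 14 counts (7.65 to 23.5) and at 5475421 to 5475445 with 11. They were followed by a 27-nt tag at 5420521 with 10, and 4 tags had 9 each, the one at 5435041 (27 nt) among them. In females alone the highest was a 27-nt tag at 5459865 to 5459891 with 34 counts (23.5 to 47.5), followed by 23 counts each at 5451384 (27 nt) and 5497748 (30 nt) and 20 at 5397338 (25 nt). The 34-count tag lies within a 28-nt tag at 5459864 to 5459891 that had 15 counts in males and 59 in females. Tags with 10 or more counts numbered 3 of the 51 in males alone and 42 of the 227 in females alone. The 51 and 227 tags in all held 14.5% (13.1 to 15.9) of the cluster's male counts and 28.7% (27.6 to 29.8) of its female counts. As the female total was the larger, 10 counts stand for a lower TPM in females. The matching shares of the whole list are not given here, so these contrasts cannot be taken as particular to the cluster.

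Along the cluster the tags lay in patches. They covered 8172 bases, 6.61% of the region, and 5 stretches of over 5 kb held no listed tag, the longest of 7135 bases. In 13 bins of 10 kb, the last one shorter, the male over female ratio was below 1 with its interval in 11 of them. The 4 bins with the highest female TPM, at 40 to 50, 80 to 90, 90 to 100 and 110 to 120 kb from the first base, held 257 tags with 62% of the male and 70.3% of the female counts. Their ratios were 0.49 (0.44 to 0.55), 0.41 (0.36 to 0.47), 0.55 (0.5 to 0.61) and 0.31 (0.27 to 0.36), so those at 80 to 90 and 110 to 120 kb lay apart from that at 90 to 100 kb by more than counting error.

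The bin at 10 to 20 kb was the 1 with the interval above 1. Its 29 tags, 16 of them higher in males, held 323 counts in males and 292 in females, at a ratio of 1.44 (1.22 to 1.69). They lay between bases 5393287 and 5398687, set off by stretches without listed tags of 6516 bases before and 5876 bases after. This bin was singled out after its values were seen. Without its most counted tag, at 5398002, the ratio was 1.33 (1.11 to 1.59). The ratio was 1.06 with TMM and 0.64 with RLE factors, but every such scaling moved all bins by the same factor. In the bin at 70 to 80 kb both sexes were alike within counting error, with 65 counts in males and 86 in females, at a ratio of 0.98 (0.7 to 1.37).

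**Figure D3:**
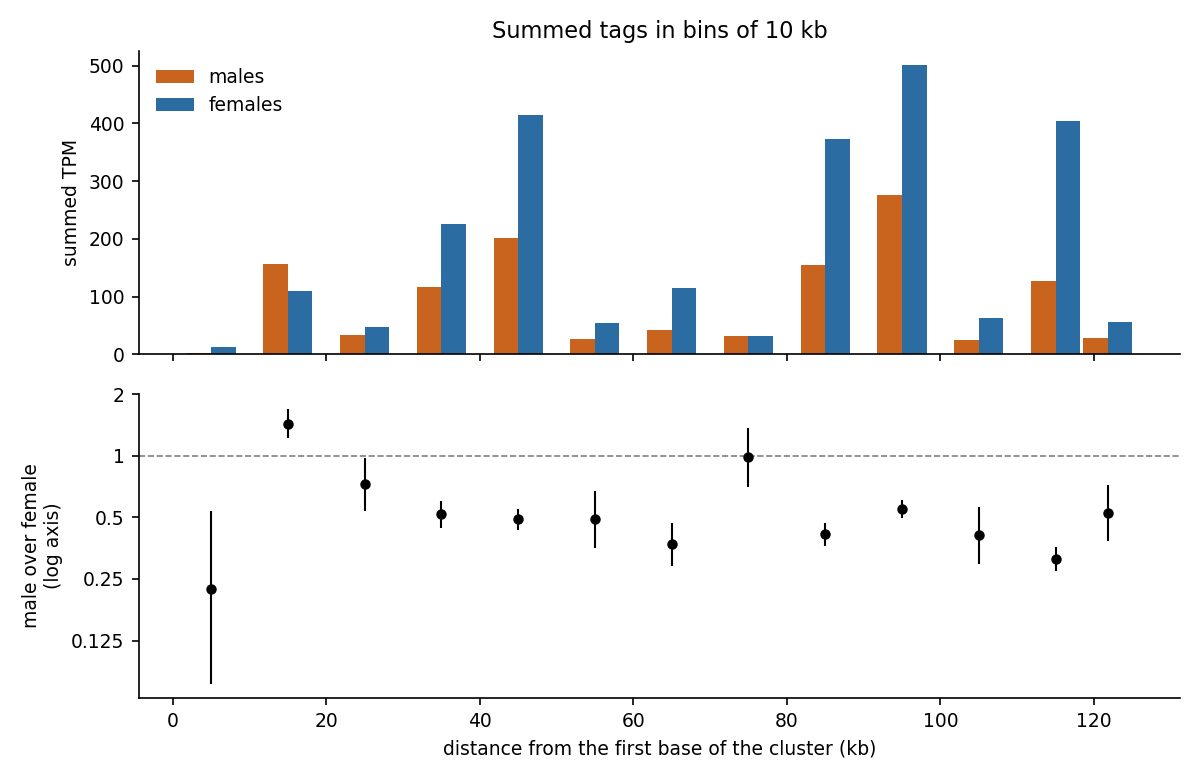
Upper plot, summed TPM of the tags in each bin (bars, males left and females right), and lower plot, the male over female ratio of each bin with its 95% counting interval (log axis), against the distance from the first base in kb. The bin at 10 to 20 kb stands above 1, and 11 of the 13 bins stand below 1 with their intervals.

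Tags that shared at least 1 base formed 253 stacks, of which 167 were 1 tag and 86 held 2 to 16 tags. By their sums 58 stacks (22.9%) were higher in males and 195 in females, near the 23.1% of the cluster's tags that were higher in males. Of the 86 stacks with several tags, 5 had tags higher in males throughout, 47 had tags higher in females throughout, and 34 held both. The matching numbers for stacks of the whole list are not given here, so these cannot be taken as particular to the cluster. The stack with most counts, at 5462600 to 5462639, was largely the leading tag, with 173 counts in males and 509 in females, or 6.85% of the male and 7.9% of the female counts of the cluster. The second, at 5469181 to 5469250, held 7 tags, all lower in males, with 98 counts in males and 327 in females, at a ratio of 0.39 (0.31 to 0.49). The stacks at 5420112 to 5420140 and 5492413 to 5492442, with 3 and 4 tags, each held 1 abundant tag and had ratios of 0.46 (0.36 to 0.59) and 0.47 (0.36 to 0.63). The 10 leading stacks of each sex held 39.2% (37.3 to 41.1) of the male and 34.7% (33.5 to 35.9) of the female counts.

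Some stacks mixed the directions within a few bases. At 5409363 to 5409391 a 25-nt tag had 21 counts in males and 9 in females, while the 27-nt leading tag that starts 2 bases later was lower in males (99 counts in males and 262 in females). At 5419652 to 5419699, 5 of 7 tags were higher in males, and the sum was 115 counts in males and 104 in females, at a ratio of 1.44 (1.09 to 1.89) that was 0.64 with RLE factors. Its 2 tags lower in males were the first by position, led by a 28-nt tag at 5419652 to 5419679 with 11 counts in males and 45 in females.

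The stack with most tags, 16 at 5475375 to 5475486, had 6 tags higher in males and 10 higher in females. Its sums were 146 counts in males and 179 in females, at a ratio of 1.06 (0.85 to 1.33), although each listed tag was at least 2-fold apart. The sums were within counting error of each other at this scaling, but not with TMM factors, at 0.78 (0.62 to 0.97), or RLE factors, at 0.47 (0.37 to 0.59), and the ratio was 0.99 with listed totals. In males the tag at 5475410 to 5475433 (24 nt) led with 40 counts, against 24 in females, and the one at 5475422 to 5475450 (29 nt) had 32 counts in males and 12 in females. Overlapping the second of these, a 26-nt tag at 5475429 to 5475454 had 3 counts in males and 25 in females. The 10 tags at 5442105 to 5442213 were less mixed, with 52 counts in males and 143 in females, at a ratio of 0.47 (0.34 to 0.65), and its 2 tags higher in males lay at its right end. All 9 tags at 5423384 to 5423431 were lower in males, with 12 counts in males and 107 in females, at a ratio of 0.15 (0.073 to 0.27).

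**Figure D4:**
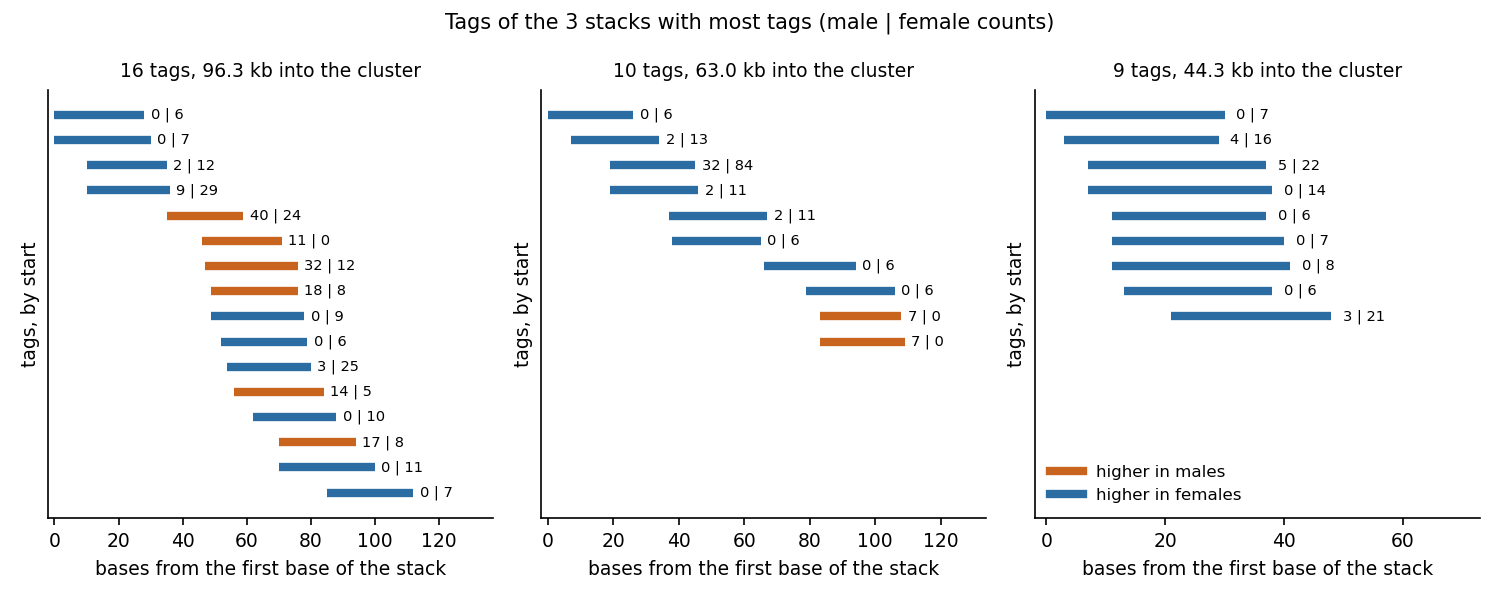
Tags of the 3 stacks with most tags as bars by position (horizontal axis, bases from the first base of the stack), ordered by start down the page, with male and female counts beside each bar. The stack of 16 tags holds 6 higher in males among 10 higher in females, and the stack of 9 tags holds none higher in males.

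The lengths differed between the sexes. Tags of 24 or 25 nt held 17.0% (15.5 to 18.5) of the cluster's male counts and 6.57% (5.98 to 7.2) of its female counts. Their sums, 428 in males and 423 in females, gave a ratio of 1.31 (1.15 to 1.51), which was 0.97 (0.84 to 1.11) with TMM and 0.58 with RLE factors. Tags of 27 or 28 nt held 55.0% (53.0 to 56.9) of the male and 60.9% (59.7 to 62.1) of the female counts. Ratios were 1.25 (0.97 to 1.61) at 24 nt and 1.34 (1.14 to 1.58) at 25 nt. From 26 nt on they were lower, with 0.55 (0.48 to 0.64) at 26 nt, 0.45 (0.41 to 0.49) at 27 nt, 0.42 (0.37 to 0.48) at 29 nt and 0.33 (0.25 to 0.43) at 30 nt. By tags, 27 of the 100 higher in males (27%) and 37 of the 333 higher in females (11.1%) had 24 or 25 nt, against 22.7% and 15.9% of the other nuclear tags higher in males and in females. When each tag present in a sex was counted once the shares nearly met, at 14.1% (9.64 to 19.6) in males and 13.6% (10.3 to 17.5) in females. Tags counted in both sexes enter both of these shares, which draws them together. Of the tags listed in 1 sex alone, 12 of 51 in males and 35 of 227 in females had 24 or 25 nt.

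The other 21871 nuclear tags also had the higher share of short tags in males, but their ratios at the longer lengths were higher than those of the cluster. There 24 or 25 nt held 22.3% (22.1 to 22.5) of the male and 15.0% (14.8 to 15.1) of the female counts, both above the shares in the cluster. At 29 nt the ratio was 0.42 (0.37 to 0.48) in the cluster and 1.03 (1.01 to 1.04) in the other nuclear tags. At 30 nt it was 0.33 (0.25 to 0.43) in the cluster and 1.16 (1.13 to 1.19) in the others, and at 25 nt it was 1.34 (1.14 to 1.58) in the cluster and 1.31 (1.28 to 1.33) in the others. At 24 nt the cluster also lay below the others, at 1.25 (0.97 to 1.61) against 1.78 (1.75 to 1.82). Scaling moves both sets alike and leaves these contrasts as they are. The 12 cluster tags of 31 to 33 nt had 79 counts in males and 297 in females, of which the 31-nt tag at 5469220 to 5469250 gave 41 in males and 127 in females. Of the 12, 2 (16.7%) were higher in males, against 254 of the 531 other nuclear tags of these lengths (47.8%). They lay at 5408034 to 5408064 (9 counts in males and 2 in females) and 5419660 to 5419692 (11 counts in males and 3 in females).

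**Figure D5:**
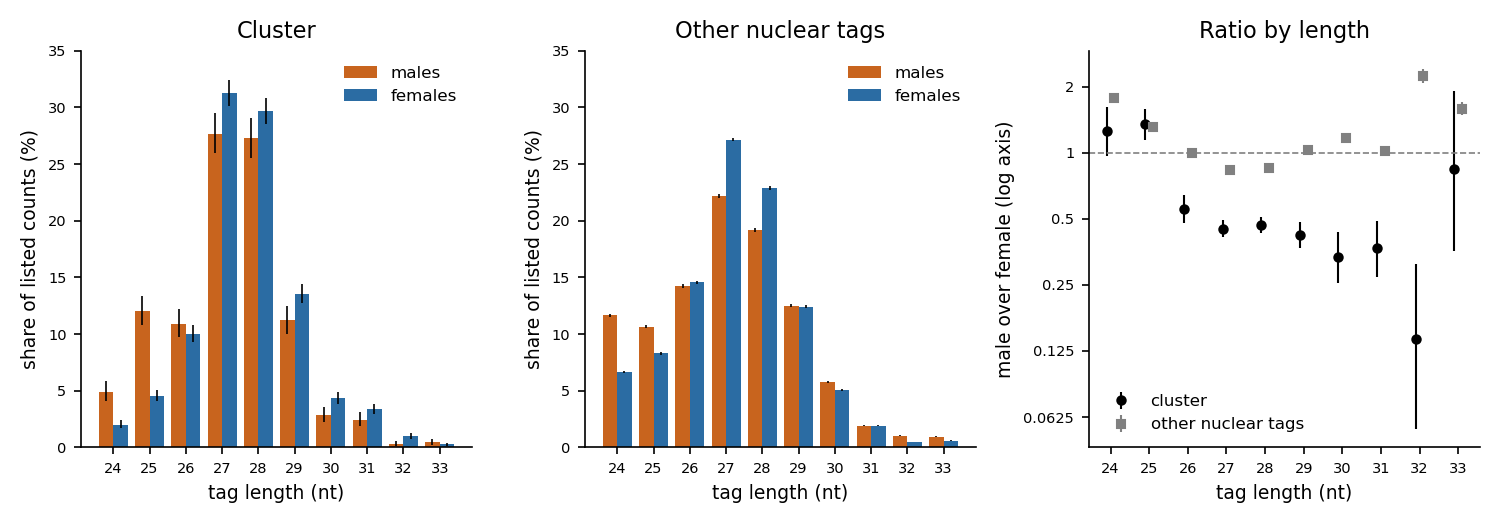
Share of listed counts in % at each tag length in nt for the cluster and for the other nuclear tags (bars, males left and females right, with 95% counting intervals), and the male over female ratio at each length (log axis). In the cluster the ratio is above 1 at 24 and 25 nt and below 1 at 26 to 33 nt, with intervals that hold 1 at 24 and 33 nt. The other nuclear tags lie near or above 1 from 29 nt on.

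Tags of the cluster often shared 1 end and differed at the other. On a PIWI protein the 5′ end of a piRNA is held in a fixed pocket and the 3′ end is trimmed, so forms trimmed from 1 cut intermediate tend to share the 5′ end. The table gives no strand, so only the lower (start) and upper (end) coordinates can be compared. There were 57 pairs of tags with a common start and 21 with a common end, 73.1% with a common start. Among the other nuclear tags 1573 pairs had a common start and 1728 a common end (47.7%). The 3 nuclear regions next in number of tags had 78.3%, 74.8% and 73.5%, so a lean to common starts was not particular to this cluster.

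Within such pairs the sexes showed no clear order by length. Among the 57 with a common start, the shorter tag had the higher male over female ratio in 21, the lower in 17, and 19 were tied. Among the 21 with a common end the numbers were 7, 8 and 6. For the other nuclear tags they were 610, 597 and 366 of 1573 pairs with a common start, and 628, 712 and 388 of 1728 with a common end. In 9 of the 57 pairs with a common start the tags went in opposite directions, and in 8 of these the shorter one was higher in males. Among the other nuclear tags 136 of the 1573 went in opposite directions, and their order by length is not given here. The 9 pairs were picked by direction, so they set no rule by length. These 9 pairs lay in 8 families, 4 of them between bases 5475288 and 5475474. At start 5475346, the 25-nt tag had 20 counts in males and 9 in females, and the 28-nt tag 0 in males and 10 in females. At start 5490864, the 28-nt tag had 7 counts in males and 0 in females, and the tag 1 base longer had 0 in males and 19 in females. With a common end, 4 pairs were opposite, and the shorter tag was higher in males in 2. At the end 5397362 the order was turned, as the 25-nt tag had 0 counts in males and 20 in females and the 27-nt tag 11 in males and 3 in females.

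Neighbouring tags also lay head to tail. In Drosophila, precursors are cut in steps so that 1 piRNA starts on the base after the last. In the cluster 17 pairs were so placed, against a mean of 6.83 at each distance of 1 to 3 bases to either side. These distances were uneven. Gaps of 3, 2 and 1 bases held 11, 1 and 13 pairs, and overlaps of 1, 2 and 3 bases held 10, 0 and 6. With each end counted once there were 14 head-to-tail pairs, against 10 at a gap of 1 base. No interval was computed, and without strand, tags on opposite strands are counted too. The other nuclear tags had 349 head-to-tail pairs against a mean of 182, so these were numerous in the rest of the list too. Of the 17 pairs in the cluster, 1 was higher in males in both tags, 11 were higher in females in both, and 5 were opposite. As 76.9% of the cluster's tags were higher in females, most pairs of any kind would go that way. The matching split of the whole list is not given here, so it does not show that neighbours go together. At 5419224 to 5419251 and 5419252 to 5419279, both of 28 nt, counts were 4 and 7 in males and 19 and 37 in females. At 5497615 to 5497641 and 5497642 to 5497668, both of 27 nt, they were 0 and 3 in males and 11 and 35 in females. At lower coordinates than the stack with most tags, the tag at 5475261 to 5475287, with 19 counts in males and 51 in females, met tags at 5475288, and the tag at 5475316 to 5475345, with 10 in males and 2 in females, met the opposite family at 5475346.

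Overlaps of 10 bases, which the ping-pong cycle leaves between the 5′ ends of partners on opposite strands, were few. There were 12 pairs at 10 bases against a mean of 7 at 8, 9, 11 and 12 bases, a ratio of 1.71 (0.79 to 3.48), and 8 against 5.5 when each end was counted once, a ratio of 1.45 (0.56 to 3.39). Both intervals, which take pairs as independent, hold 1, so an excess of such overlaps was not detectable at this number of pairs. The other nuclear tags had 247 pairs at 10 bases, and 152, 176, 231 and 217 at 8, 9, 11 and 12 bases. Without strand, pairs on the same strand are counted too, so these numbers cannot tell whether ping-pong partners are present.

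Set beside the 3 nuclear regions nearest in number of tags, the cluster was the widest and among the sparser. It spanned 123.6 kb with 3.5 tags per kb. The region at NW_021837489.1 had 9.67 tags per kb over 44.0 kb, and those at NW_021839130.1 had 5.84 over 67.6 kb and 3.4 over 108.6 kb. The share of tags higher in males was 23.1% in the cluster and 46.6%, 73.2% and 10.8% in the others. The cluster's female counts had the lowest share at 24 or 25 nt beside these regions. It was 6.57% (5.98 to 7.2) in the cluster against 13.2% (12.1 to 14.2), 20.8% (19.7 to 21.99) and 14.2% (13.5 to 15.0) in the others. The male share, 17.0% (15.5 to 18.5), lay within the range of the others, 18.3%, 19.7% and 12.8%. The 52 other listed tags of the scaffold had a female share of 6.48% (4.35 to 9.23), so the low share was not particular to the cluster. Counting error alone is covered, so whether these contrasts exceed the spread between libraries could not be examined.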

How the data were processed

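Reads were trimmed with Trimmomatic 0.30, per the submitters' processing notes. The sources used here do not give the aligner, the counter, the genome build, the filter on tags or how libraries were combined. The deposited counts are whole numbers per tag, 1 column per sex, mapped by column name. The authors deposited TPM values that equal the count scaled by 1 total per column, without a length term, with 0.01 written for a count of 0. The deposited log2 values are male over female TPM, none under 1.0 in size. At 2 counts in the other sex the smallest listed count in the cluster was 9 in males and 11 in females, above a plain 2-fold edge.

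Totals were recovered from the ratio of count to TPM. The design foresaw edgeR's quasi-likelihood test for replicate counts, which 1 column per sex does not allow. Ratios have exact conditional (Clopper-Pearson) 95% intervals, shares exact binomial and counts exact Poisson intervals. The ratio intervals and the counting of end positions were tested on simulated data. The labels name no molecular identifiers, so reads may not be independent molecules and intervals cover counting error only. Scaling alternatives used edgeR 4.0.16 in R 4.3.3 (TMM, RLE, upper quartile), and other steps Python 3.11.15 with scipy 1.17.1. Named tags were, per direction, the 6 with most counts, the 4 with most counts listed at 0 in the other sex, and the 4 with the largest fold at a TPM of at least 10, besides the highest in each sex. Named stacks were the 8 with most counts and the 3 with most tags. Other tags were picked after their values were seen. Members and lists were chosen with earlier results of these data known. Tag sequences, strand, repeats and genes were not used here, so the planned base composition was not run.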

Additional observations from a re-analysis of the deposited data

How the results depend on the processing

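The ratio of the cluster sums stayed below 1 in every alternative run. Scaled by listed counts it was 0.47, and it was 0.37 with TMM, 0.23 with RLE and 0.54 with upper quartile factors, whose shifts on the log2 scale were -0.10, -0.44, -1.17 and 0.08. It was 0.59 for the 64 tags with a TPM of at least 10, 0.55 with a listed 0 as 1 count, 0.61 for the 155 tags counted in both sexes and 0.45 for the largest piece at gaps of at most 5 kb. Without the bin at 10 to 20 kb, an alternative chosen after seeing the data, it was 0.47. The share of tags higher in males was 31.3% at a TPM of at least 10 and 31.6% for tags counted in both sexes, and moved less in the other alternatives. The share given above for all listed tags takes in tags listed in 1 sex alone, so it is no match for these subsets. Of the named tags 14 were higher in males, but 8 with RLE factors. The share at 24 or 25 nt was 23.05% in males and 9.02% in females without the 10 most counted tags, and 14.1% in males and 13.6% in females with each tag counted once. The 10 leading stacks in place of tags (28.8% in males and 27.6% in females) held 39.2% in males and 34.7% in females. With RLE factors the tags starting at 5398002, 5398432, 5419182, 5419664, 5471159 and 5475410 turned to 0.89, 0.89, 0.92, 0.90, 0.93 and 0.96, the stack at 5419652 to 0.64, the bin at 10 to 20 kb to 0.64, and tags of 24 or 25 nt to 0.58 (0.97 with TMM). The stack at 5475375 turned to 0.99 with listed totals, 0.78 with TMM and 0.47 with RLE. These turns follow from the scaling itself, which moves all ratios by 1 factor. Tags under 2-fold are missing from the list these factors rest on. No paired analysis was possible because the columns carry no replicate numbers, and leaving out replicates was not run for that reason. Depth limits most tags, as 233 of 433 had under 10 counts.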

Other observations

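The numbers in the tag IDs followed the summed count of both sexes without exception over the 22773 listed tags, and ran up to 286607. The listed tags are 7.95% of that number. The most counted cluster tag carries the number 6651, and only 48 listed tags have a lower one. The sources used here do not say what the missing numbers stand for, so how much of the cluster's small RNA the 433 listed tags hold is not known.

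Outside the cluster the same scaffold held 52 listed tags, the nearest at 59.3 kb before and 53.4 kb after it. Of these, 13 (25%) were higher in males, and their sums were 234 counts in males and 432 in females, at a ratio of 0.70 (0.60 to 0.83). None had 31 to 33 nt.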
